A study of Mus musculus with 6 samples.

Results

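The miR-183 cluster is a set of 3 microRNAs (miRNAs), mmu-miR-183, mmu-miR-96 and mmu-miR-182 (written below without mmu), that are transcribed together and are abundant in photoreceptors. Its members were chosen by name, as the array probes whose design name holds one of the 3 mouse miRNAs, which gave 3 of 597 mouse miRNA probes. Each member had 4 spots, so the cluster took 12 of the 8720 spots of an array. The samples were retinal cells of B10.RIII mice aged 8 weeks, 3 from mice developing experimental autoimmune uveoretinitis (EAU) and taken on day 14, and 3 from naive mice. EAU is a mouse model of human uveitis in which T cells that recognise retinal proteins inflame the eye. The samples were harvested independently, and the labels do not say how many mice each one holds, so p-values measure the spread between harvests. From each sample 800 ng of total RNA carried the dye Hy3, and a reference that blends equal amounts of all 6 samples carried Hy5. Each pair shared 1 miRCURY LNA array, whose probes hold locked nucleic acids. Hy3 is called the sample channel here and Hy5 the reference channel, which held the same RNA on every array.

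Each miRNA of the cluster is cut out of a hairpin in the shared primary transcript, and 1 or both arms of a hairpin can persist as mature miRNAs. A mature miRNA guides an Argonaute protein to messenger RNAs, mostly through pairing of its seed, bases 2 to 8. In mouse retina the cluster is known to be controlled by light in photoreceptors, and in mice it is needed for photoreceptors to keep their outer segments and to survive. It is also known from sensory hair cells of the inner ear, where mutations of the miR-96 seed cause hearing loss in mice and in humans. RNA of whole retinal cells was measured here, so fewer photoreceptors and less of a miRNA per cell cannot be told apart.

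The mature sequences below show how the members resemble each other, which bears on whether their probes can be read as separate measurements. All 3 array names matched RefSeq, in which the mature miRNAs lie on the minus strand of chromosome 6 in GRCm38.p6. The array names carry no arm and were taken as the 5p arm. Capitals mark the seed.
miR-183: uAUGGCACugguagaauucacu
miR-96: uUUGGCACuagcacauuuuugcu
miR-182: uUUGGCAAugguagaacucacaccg

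MiR-183 lies at chr6:30169711-30169732, miR-96 at chr6:30169506-30169528 and miR-182 at chr6:30165962-30165986. The 3 seeds differ from each other. The seed of miR-96 matched those of miR-183 and of miR-182 at 6 of 7 positions each, and the seeds of miR-182 and miR-183 matched at 5 of 7. Compared base by base from the 5′ end, miR-182 and miR-183 shared 18 of 22 bases, miR-183 and miR-96 shared 13 of 22, and miR-182 and miR-96 shared 12 of 23. Among the 1679 mature mouse miRNAs of the RefSeq table, miR-1271-5p carries the seed of miR-96, and 0 others carry that of miR-183 or miR-182. How far the probes of miR-182 and miR-183 pick up each other's miRNA was not tested.

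The hairpins of Mir183 and Mir96 lie 116 bases apart, and 3453 bases separate Mir96 from Mir182, so that the cluster spans 3820 bases. The Mir183 hairpin is shown because both of its arms had a mouse probe on the array. It lies at chr6:30169668-30169737 on the minus strand, and capitals mark the arms, miR-183 first and miR-183* (the 3p arm, chr6:30169672-30169693) second.
Mir183: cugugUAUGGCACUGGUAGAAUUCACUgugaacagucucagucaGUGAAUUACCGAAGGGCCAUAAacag

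The arrays differed in brightness in ways that touch the cluster. The blank level, set as the median plus 3 median absolute deviations of 144 blank and negative-control spots, was 65.4 to 107 in Hy3 on EAU arrays and 65.7 to 92.1 on naive arrays. In Hy3, 249 to 315 mouse probes were above the blanks on EAU arrays and 252 to 292 on naive arrays. In Hy5, EAU replicate 3 had the fewest probes above the blanks, 149, against 239 to 314 on the other 5 arrays. Of 10 spike-in controls, 2 (i and j) were above the blanks in Hy3 on all arrays. Control j was near the blanks on EAU replicate 3, with a median of 72.4 against a blank level of 65.4. With the blanks subtracted, their Hy3 signal was 39.6%, 98.4% and 15.2% of the naive mean on EAU replicates 1 to 3, against 110%, 111% and 82.1% on naive replicates 1 to 3. The day of scanning also differed, since all EAU arrays shared one scan day and all naive arrays another, and the 6 arrays lay on separate slides. The effects of group and of scan day cannot be told apart.

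The 3 members were dimmer in EAU retinal cells than in naive ones in the unprocessed Hy3 signal, with an EAU mean at 0.273 to 0.337 of the naive mean. The raw Hy3 signal of miR-183, the mean of its 4 spots, was 454, 546 and 166 on EAU replicates 1 to 3, against 1273, 1133 and 1057 on naive replicates 1 to 3. That of miR-96 was 230, 210 and 138 on the EAU arrays, against 635, 636 and 562 on the naive arrays. That of miR-182 was 477, 349 and 191 on the EAU arrays, against 1226, 1319 and 1174 on the naive arrays. For each member all EAU arrays lay below all naive arrays, and EAU replicate 3 was the dimmest. This was so for 3 of 3 members, against 2.01% of the 597 mouse probes (12 probes, the members included). The EAU mean over the naive mean was 0.337 for miR-183 (389 ± 198 and 1154 ± 109), 0.316 for miR-96 (193 ± 48.4 and 611 ± 42.5) and 0.273 for miR-182 (339 ± 143 and 1240 ± 73.6; SD, n = 3 each).

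In the raw Hy5 signal, where every array held the same pool, the groups overlapped for 3 of 3 members, while 0.335% of the mouse probes had all EAU arrays below all naive arrays. MiR-183 had 89.6, 143 and 45.0 in Hy5 on the EAU arrays, against 115, 132 and 72.1 on the naive arrays. MiR-96 had 47.1, 80.2 and 42.6 on the EAU arrays, against 73.5, 99.4 and 68.0 on the naive arrays. MiR-182 had 76.8, 156 and 56.2 on the EAU arrays, against 128, 209 and 102 on the naive arrays. EAU replicate 3 was again the dimmest for each member, and EAU replicate 2 lay within or above the range of the naive arrays. The EAU mean over the naive mean was 0.869 for miR-183, 0.706 for miR-96 and 0.659 for miR-182, nearer to 1 than in Hy3. No background was subtracted from these raw values, and the Hy5 blank level was 36.8 to 42.8. A background left in draws a ratio towards 1, more so for dim signals, so the ratios of the channels are not directly comparable.

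**Figure D1:**
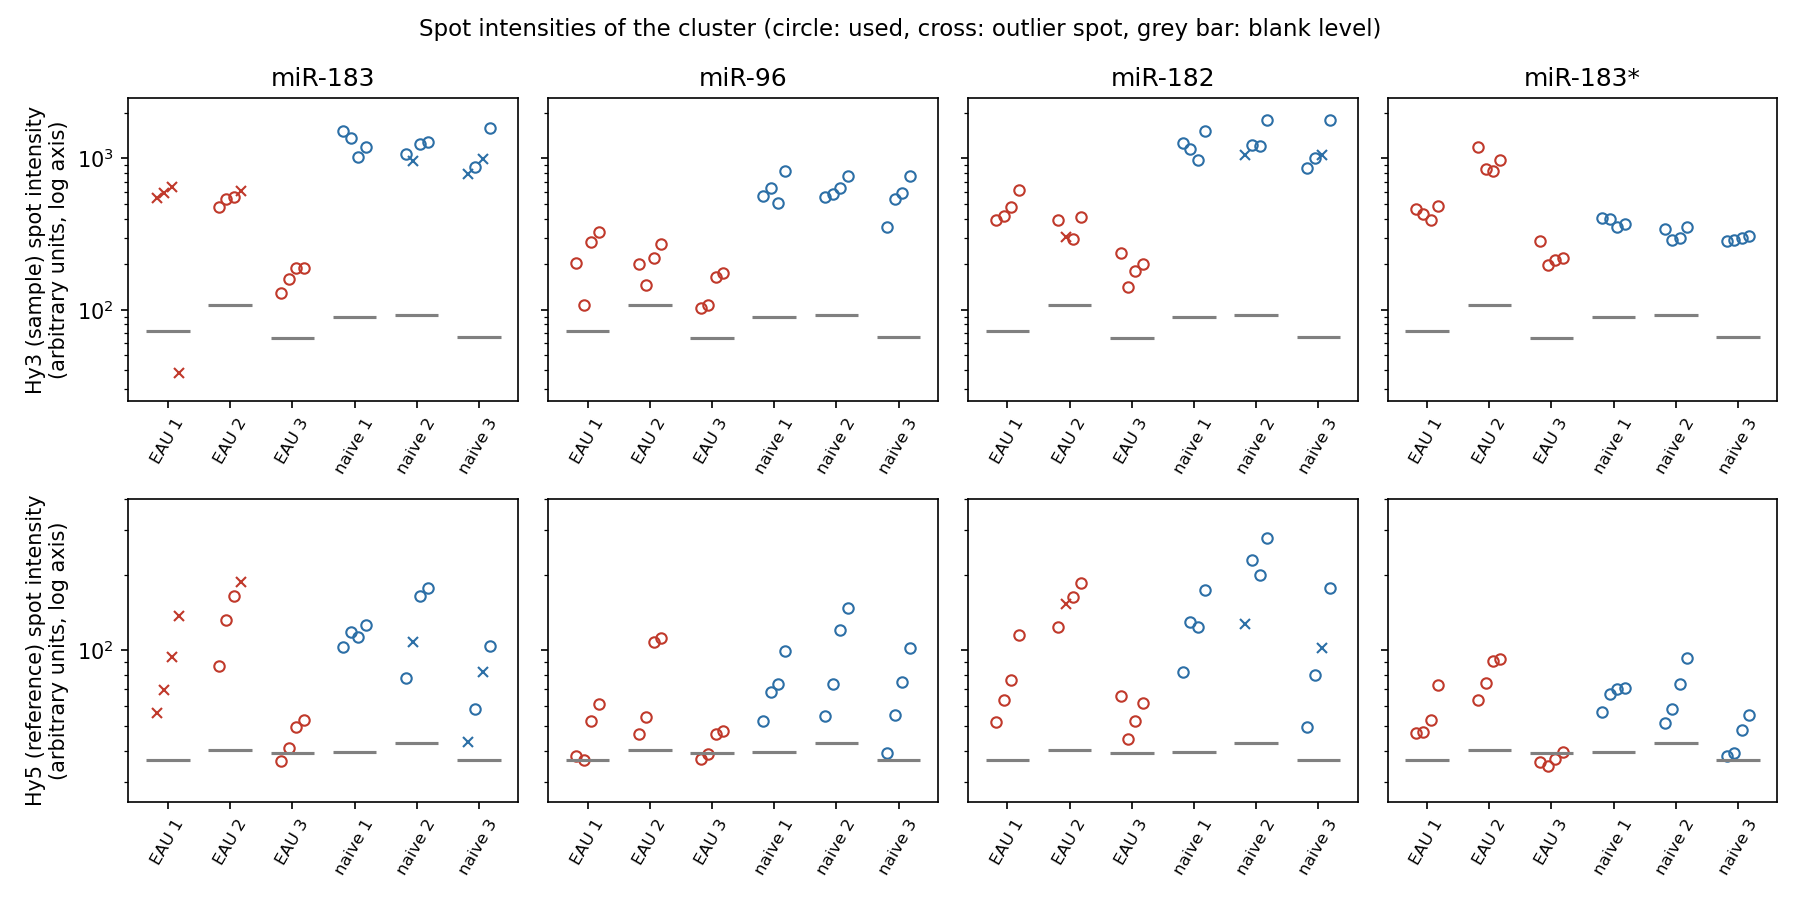
Raw intensity of each spot of miR-183, miR-96, miR-182 and miR-183* (columns) on the 3 EAU and 3 naive arrays, in Hy3 (top row) and Hy5 (bottom row), in arbitrary units on log axes. Each circle is a spot, a cross is a spot that the scanner software marked as an outlier, and the grey bar is the blank level of that array and channel. In Hy3 the spots of the 3 members lie lower on EAU than on naive arrays, while those of miR-183* lie highest on EAU replicate 2 and lowest on EAU replicate 3. In Hy5 some spots of EAU replicate 3 lie at the blank level.

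Most of these spots stood clear of the blanks. In Hy3 all 4 spots of each member were above the blanks on every array, with 1 exception, miR-183 on EAU replicate 1 with 3 of 4. The fourth spot there had 38.0 in Hy3 and 138 in Hy5, whereas the other 3 had 544, 590 and 645 in Hy3. The scanner software marked all 4 of these spots as outliers, so miR-183 had no normalized value on EAU replicate 1 and its fits rest on 2 EAU arrays. In Hy5 on EAU replicate 3, 3 of 4 spots were above the blanks for miR-183, 2 of 4 for miR-96 and 4 of 4 for miR-182.

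After background correction and normalization within each array, the log2 ratio of Hy3 to Hy5 was lower in EAU for each member, and 1 of 3 passed the test. MiR-183 was at -0.84 and 0.06 on EAU replicates 2 and 3, against 0.90, 1.05 and 1.03 on naive replicates 1 to 3. MiR-96 was at 0.11, -0.71 and -0.01 on the EAU arrays, against 0.78, 0.79 and 0.55 on the naive arrays. MiR-182 was at 0.00, -1.59 and -0.25 on the EAU arrays, against 0.74, 0.42 and 0.83 on the naive arrays. For each member EAU replicate 2 held the lowest value, and the EAU values lay below all naive values, as they did for 29.6% of the 595 tested mouse probes.

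MiR-183 fell, with a log2 difference of -1.38 (SE 0.28), a fold of 0.384 and an adjusted p of 0.0483 over all tested probes in limma. It averaged -0.39 ± 0.63 in EAU (SD, n = 2 arrays) and 0.99 ± 0.08 in naive cells (n = 3 arrays), and had the most negative difference of the 595 probes. With its outlier spots kept, except the one without Hy3 signal, EAU replicate 1 had a value of 0.24, and the difference was -1.23 with an adjusted p of 0.061. The call was also lost without naive replicate 1, 2 or 3 (adjusted p = 0.121, 0.153 and 0.109), and the difference was -0.93 with EAU replicate 2 left out and -1.83 with EAU replicate 3 left out. The last 2 values rest on 1 EAU array, which is assumed to vary like the naive ones.

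MiR-96, at a log2 difference of -0.91 (SE 0.23), did not pass (adjusted p = 0.0593). It averaged -0.20 ± 0.45 in EAU and 0.71 ± 0.13 in naive cells (SD, n = 3 arrays each). MiR-182, at a difference of -1.28 (SE 0.44), did not pass either (adjusted p = 0.104), with means of -0.61 ± 0.85 in EAU and 0.66 ± 0.21 in naive cells. Without EAU replicate 2, whose ratios were the lowest, the differences were smaller and both passed. MiR-96 was then at -0.66 (adjusted p = 0.0301) and miR-182 at -0.79 (adjusted p = 0.048). The share of all tested probes that were called lower was 8.74%, and 12.9% were called in either direction.

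**Figure D2:**
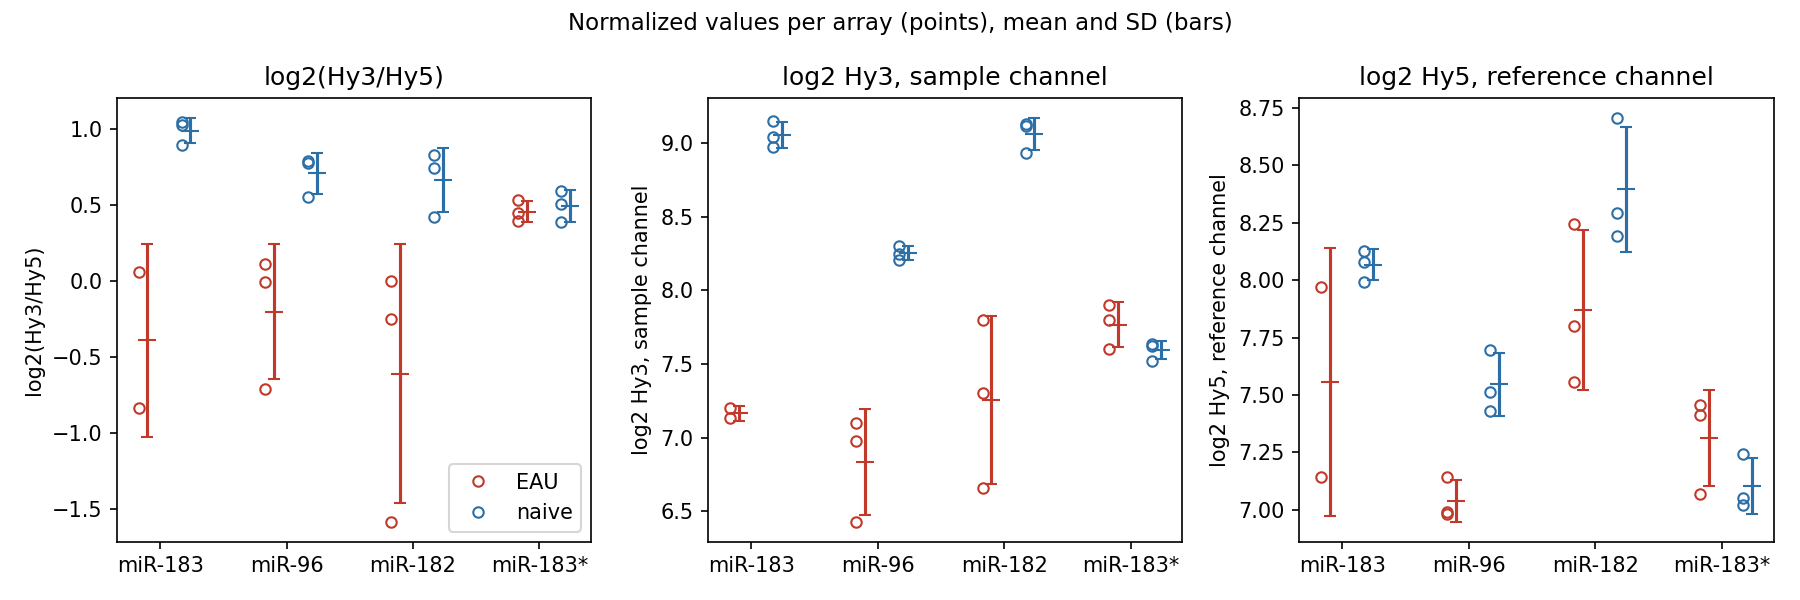
Normalized values per array of the cluster and of miR-183*, as the log2 ratio of Hy3 to Hy5 (left), log2 Hy3 (middle) and log2 Hy5 (right), with EAU left of naive. Points are arrays and bars the mean and SD, over 3 arrays a group except miR-183 in EAU, which has 2. For the 3 members the EAU points lie below the naive ones in the left and middle panels, while for miR-183* they overlap in the left panel.

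The sample channel gave larger differences for the cluster, and 3 of 3 members fell. The channel was scaled between arrays by Aquantile in limma, which equalizes the distribution of the mean of log2 Hy3 and log2 Hy5. These Hy3 values were thus normalized together with Hy5. With quantile normalization of the channel alone, miR-183 differed by -2.17, miR-96 by -1.74 and miR-182 by -2.07. On the log2 scale miR-183 was at 7.13 and 7.20 on EAU replicates 2 and 3, against 8.98, 9.04 and 9.15 on the naive arrays. MiR-96 was at 7.10, 6.43 and 6.98 on the EAU arrays, against 8.21, 8.30 and 8.25 on the naive arrays. MiR-182 was at 7.80, 6.66 and 7.31 on the EAU arrays, against 8.93, 9.13 and 9.12 on the naive arrays. The groups did not overlap for any member, as for 16.3% of tested probes, and the naive arrays lay close together.

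MiR-183 differed by -1.89 in the sample channel (SE 0.07; adjusted p = 0.00106, limma), a fold of 0.270. MiR-96 differed by -1.42 (SE 0.18; adjusted p = 0.0153), a fold of 0.374. MiR-182 differed by -1.80 (SE 0.29; adjusted p = 0.0205), a fold of 0.286. Counted from the most negative difference, miR-183, miR-182 and miR-96 ranked 2, 3 and 5 among the 595 tested probes. In this channel 5.71% of the tested probes were called lower, and 10.6% in either direction. The small error of miR-183 rests on 2 EAU arrays. With the outlier spots kept, except the one without Hy3 signal, EAU replicate 1 was at 8.06 and the difference was -1.52 (SE 0.26; adjusted p = 0.0241). The call of miR-183 was kept without naive replicate 1, 2 or 3 (adjusted p = 0.0119, 0.0109 and 0.0127). MiR-96 lost it without naive replicate 1 or 3, and miR-182 without naive replicate 1, 2 or 3.

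The same steps applied to the reference channel gave differences for the cluster too, though none passed. The log2 Hy5 value of miR-183 differed by -0.51 (SE 0.26; adjusted p = 0.673), that of miR-96 by -0.51 (SE 0.09; adjusted p = 0.110) and that of miR-182 by -0.53 (SE 0.22; adjusted p = 0.584). Of the 595 tested probes, 0 were called in limma (0% in either direction), while 44 had an unadjusted p under 0.05. The EAU values lay below all naive values for miR-183 and miR-96 but not for miR-182, as they did for 5.38% of tested probes. The arrays held the same reference RNA, but these Hy5 values were normalized together with Hy3, so they do not read the reference alone. The log2 ratio subtracts the Hy5 differences from the sample channel. No dyes were swapped, so a difference between the dyes stays in each log2 ratio. A part that is constant for a probe cancels between the groups. Whether the dye difference varied between the scan days was not tested.

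**Figure D3:**
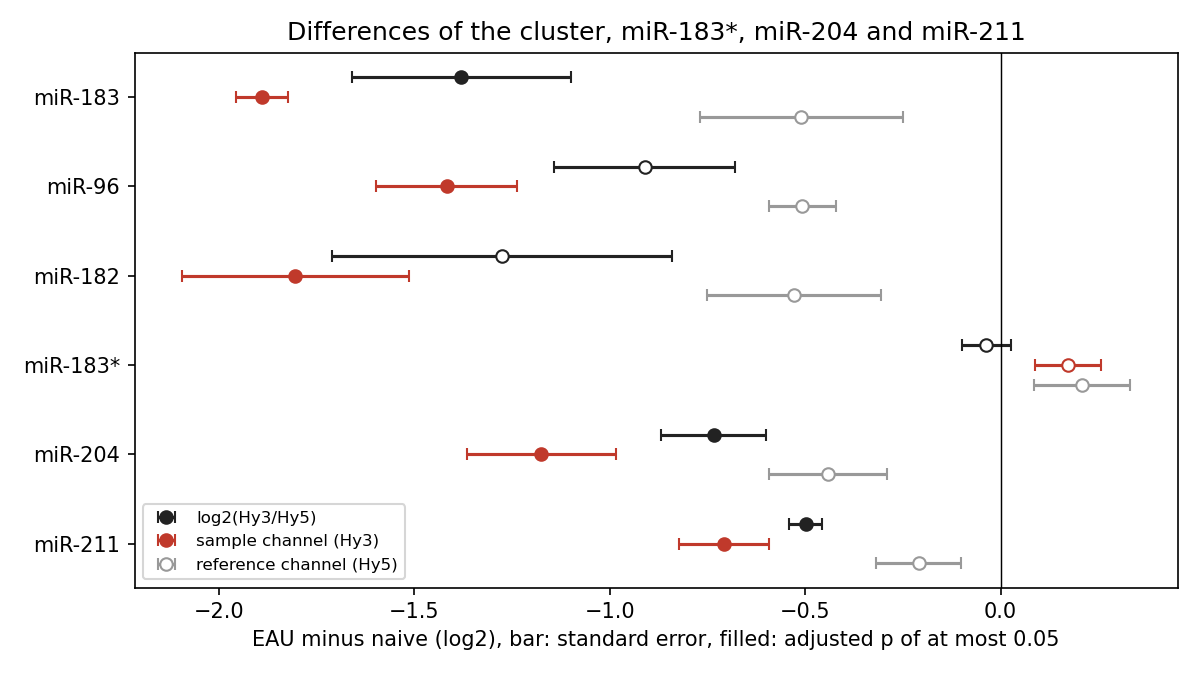
Difference of EAU minus naive on the log2 scale for the 3 members, miR-183*, miR-204 and miR-211, in the log2 ratio (black), the sample channel (red) and the reference channel (grey). Bars are standard errors, and filled points have an adjusted p of at most 0.05 in limma. The 3 members lie furthest to the left in the sample channel, at -1.89, -1.42 and -1.80, with reference channel differences of about -0.5.

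Set against the spike-in controls, the cluster was lower on 1 of the 3 EAU arrays by a wide margin. The amounts of the spike-in RNAs are not given in the labels. Since control j lay near the blanks on EAU replicate 3, the values scaled to the controls are uncertain for that array. Relative to controls i and j, with the blanks subtracted, miR-183 was at 93.1%, 44.5% and 71.3% of its naive mean on EAU replicates 1 to 3, against 101%, 88.3% and 112% on the naive arrays. MiR-96 was at 81.9%, 26.4% and 108% on the EAU arrays, against 94.5%, 93.6% and 113% on the naive arrays. MiR-182 was at 91.1%, 24.3% and 79.9% on the EAU arrays, against 89.7% to 116% on the naive arrays. EAU replicate 2 was the lowest array for each member, and on EAU replicates 1 and 3 the members and the controls were dim together. Without its spot that had no Hy3 signal, miR-183 on EAU replicate 1 was at 125%.

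Scaling the sample channel to these controls moved the median difference of all 595 probes by 0.89, so that the members are best read against that shift. In this setting 342 of the 595 tested probes were called higher and 4 lower. So scaled, miR-183 differed by -1.08 (adjusted p = 0.0115) and miR-182 by -1.03 (adjusted p = 0.0281), and both fell, while miR-96 at -0.73 did not pass (adjusted p = 0.0597). These fits leave out the outlier spots and so EAU replicate 1 for miR-183, and they add a constant of 50 to the signal before the logarithm. With a constant of 0 the median of all probes lay at 1.21, and the differences were -0.98 for miR-183 (adjusted p = 0.0336), -0.75 for miR-96 (adjusted p = 0.131) and -0.93 for miR-182 (adjusted p = 0.0831). There 325 probes were called higher and 2 lower. This scaling was chosen after the data were seen. The part of the arrays' brightness in the differences of the cluster was not tested further.

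**Figure D4:**
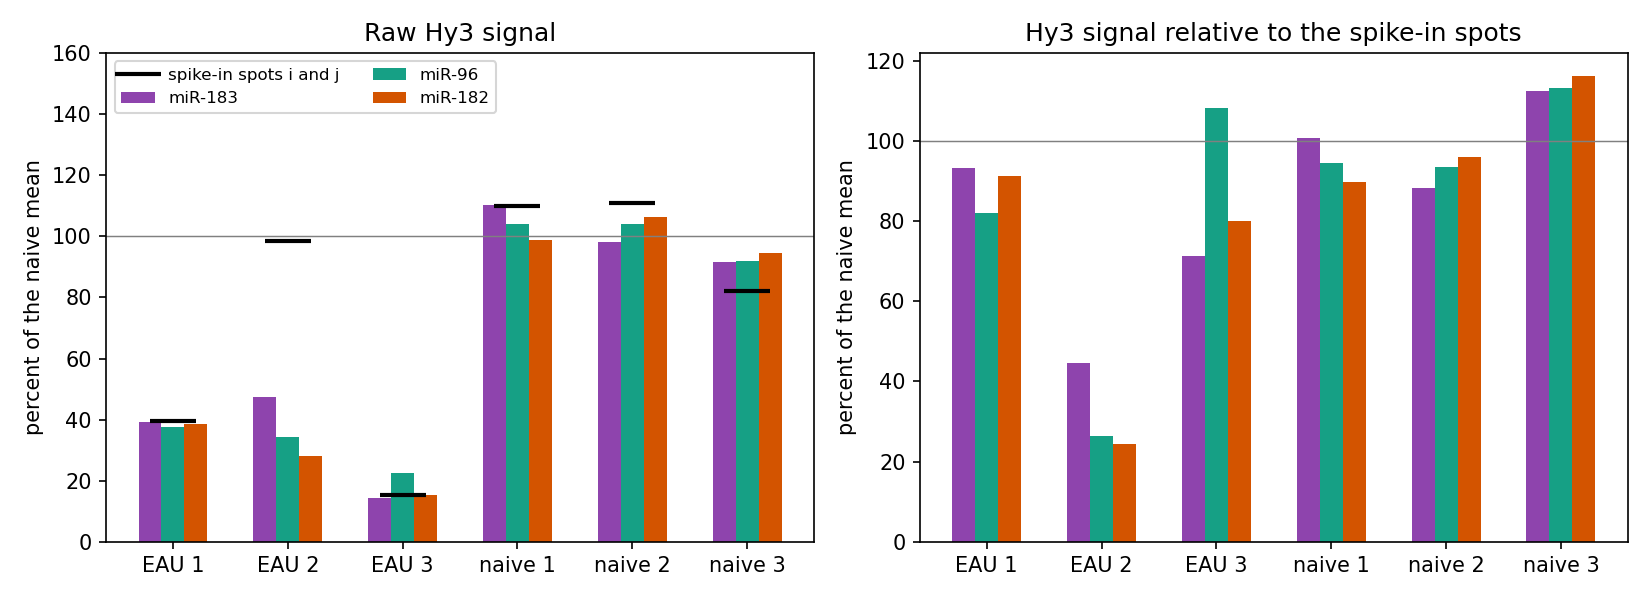
Hy3 signal of the 3 members (bars) on each array as a percent of the naive mean, raw (left) and relative to the spike-in control spots i and j (right). Black lines in the left panel are the 2 controls, with the blanks subtracted. The bars there have no blanks subtracted, so lines and bars are not directly comparable. On EAU replicates 1 and 3 the controls and the members are both far below the naive mean in the left panel. On EAU replicate 2 the controls are at 98.4% while the members are far lower.

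The arms of the Mir183 hairpin had unlike values, although the test of their difference, given below, could not have passed. MiR-183*, whose strand is often less abundant, had a raw Hy3 signal of 440, 960 and 228 on EAU replicates 1 to 3, against 380, 321 and 294 on naive replicates 1 to 3. EAU replicate 3 was the lowest of the 6 arrays and EAU replicate 2 the highest, so the groups overlapped. Its log2 ratio was 0.39, 0.44 and 0.53 on the EAU arrays, against 0.38, 0.50 and 0.59 on the naive arrays, a difference of -0.04 (SE 0.06; adjusted p = 0.724, limma). In the sample channel it differed by 0.17 (SE 0.08; adjusted p = 0.315). Scaled to the spike-in controls it was 1.35 higher in EAU (adjusted p = 0.00275), against the shift of 0.89 in the median of all probes. In that setting 342 of the 595 tested probes were called higher, so this call is shared by many probes. On EAU replicate 2, the array with the spike-in controls near the naive level, miR-183* was bright and miR-183 was dim.

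The difference between the arms was tested on each array that measured both, 2 EAU and 3 naive. On EAU replicate 1, left out here, the log2 ratio of miR-183* was 0.39. That of miR-183 was 0.24 there with its outlier spots kept, except the one without Hy3 signal. The log2 ratio of miR-183* minus that of miR-183 averaged 0.88 ± 0.57 in EAU and -0.50 ± 0.05 in naive cells (SD), a difference of 1.38. The groups did not overlap, and the exact permutation test, two-sided, gave p = 0.1, the smallest that these numbers of arrays allow. In the sample channel the same quantity averaged 0.59 ± 0.26 in EAU and -1.46 ± 0.09 in naive cells, a difference of 2.05 with the same p. The array has probes for the other arms of Mir96 and Mir182 under human names only (hsa-miR-96* and hsa-miR-182*), and they were above the blanks on 0 of 6 arrays.

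The members were also compared with each other, in 3 pairs, by whether the difference between EAU and naive cells was itself unequal. In the log2 ratio, miR-183 minus miR-96 differed by -0.31 between the groups (exact permutation test, two-sided, p = 0.2). MiR-182 minus miR-96 differed by -0.37 (exact p = 0.4), and miR-182 minus miR-183 by -0.20 (exact p = 0.5). Adjusted over the 3 pairs, each had an exact permutation p of 0.5. No pair passed, and with at most 3 arrays a group no pair could have, since the smallest p is 0.1. The per-array gap between miR-182 and miR-96 averaged -0.41 ± 0.41 in EAU and -0.04 ± 0.32 in naive cells (SD, n = 3 each), a spread as wide as the difference. In the sample channel the 3 pairs differed by -0.34, -0.39 and -0.19, with adjusted exact p of 0.15, 0.15 and 0.5.

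The 4 spots of a member are copies of 1 probe at different places of the array, and their values differed by copy. The mean Hy5 signal over the 6 arrays was 44.7, 54.6, 79.6 and 95.1 for copies 1 to 4 of miR-96, and 83.5, 117, 120 and 166 for those of miR-182. The log2 ratios of miR-96 fell in the same order: in EAU cells it averaged 0.17, -0.10, -0.43 and -0.45 for copies 1 to 4, against 1.12, 0.88, 0.44 and 0.38 in naive cells. The difference of EAU minus naive was -0.96, -0.98, -0.87 and -0.83 for copies 1 to 4 of miR-96, and -1.63, -1.13, -1.19 and -1.32 for those of miR-182, over all spots.

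The naive means of miR-183 were 1.47, 1.04, 0.74 and 0.78 for copies 1 to 4, so the last copy was not the lowest. Over all spots the copies of miR-183 differed by -1.31, -1.19, -1.21 and -2.21. The fourth copy holds the spot of EAU replicate 1 that had no Hy3 signal, and without outliers its difference was -0.95, from 1 EAU array. The copies of miR-183* differed by -0.04, -0.08, -0.02 and -0.01. Each of the 12 spots of the cluster was therefore lower in EAU on average, and each of the 4 copies of miR-183* lay within 0.1 of 0. The copies of a probe share the same arrays and RNA, so they are not replicates. Whether the place on the array sets the Hy5 signal of a copy was not tested.

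**Figure D5:**
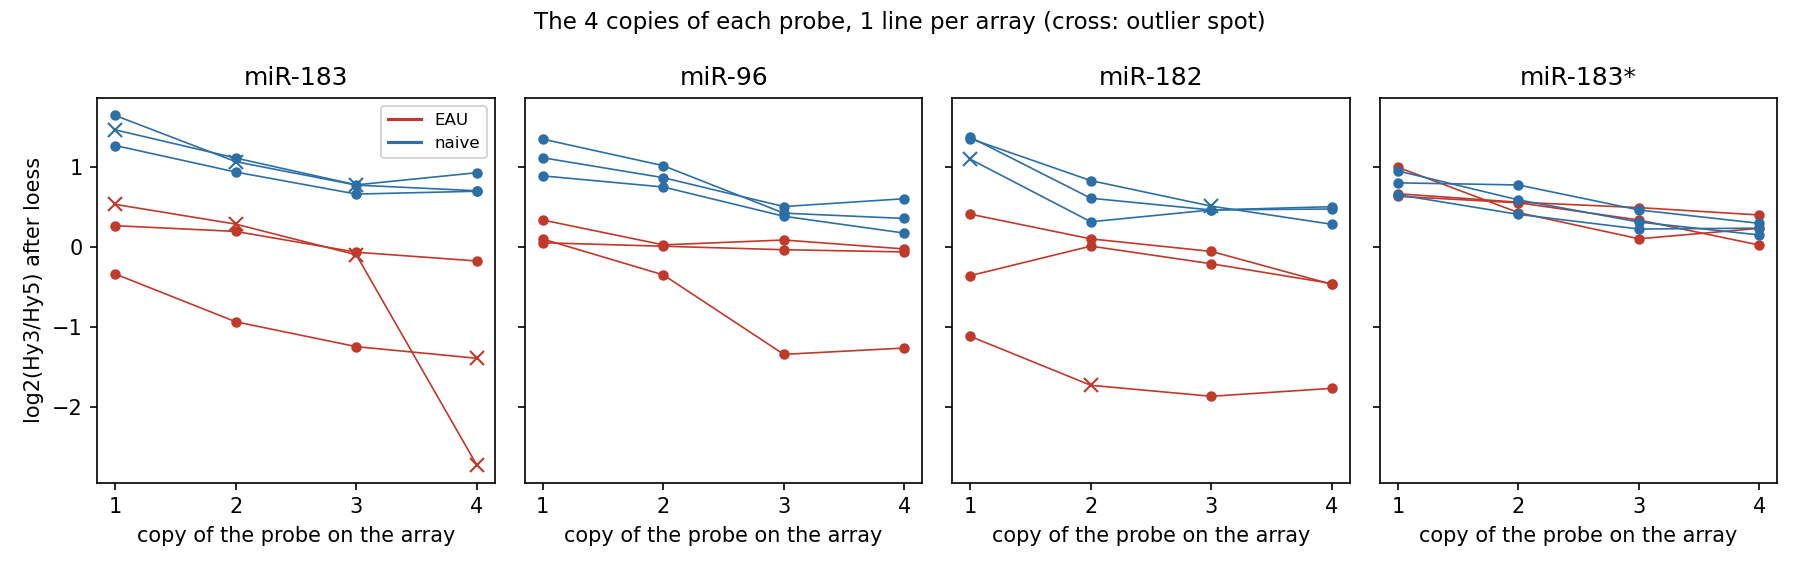
Log2 ratio of Hy3 to Hy5 for copies 1 to 4 (horizontal axis) of miR-183, miR-96, miR-182 and miR-183*, over all spots, with a line for each array, EAU in red and naive in blue. The ratio declines over the copies on most arrays of both groups, and for miR-96 most steeply on the lowest EAU array, replicate 2. The lowest point of miR-183 is the spot of EAU replicate 1 without Hy3 signal.

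In the authors' deposited table, which gives a linear ratio per probe with an unstated normalization, the members were lower in EAU as well. The ratio of miR-183 in the authors' deposited table was 0.865, 0.492 and 1.08 on EAU replicates 1 to 3, against 1.79, 2.36 and 3.09 on naive replicates 1 to 3. That of miR-96 in the authors' deposited table was 1.11, 0.448 and 0.775 on the EAU arrays, against 1.72, 2.22 and 1.87 on the naive arrays. That of miR-182 in the authors' deposited table was 0.897, 0.287 and 0.561 on the EAU arrays, against 1.63, 1.56 and 2.16 on the naive arrays. EAU replicate 2 was again the lowest array for each member. MiR-183* in the authors' deposited table was at 1.39, 1.40 and 2.72 on the EAU arrays, against 1.20, 1.68 and 2.01 on the naive arrays, with overlap. A limma fit on the log2 of the deposited ratios gave -1.61 for miR-183 (adjusted p = 0.00171), -1.40 for miR-96 (adjusted p = 0.00318) and -1.75 for miR-182 (adjusted p = 0.00216), and 3 of 3 fell, where 6.8% of the 588 probes in that fit were called lower.

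MiR-204 and miR-211, 2 miRNAs outside the cluster that are abundant in the pigment epithelium and known to vary with light in mouse retina, were compared as a short list. They are shown because they share a seed, in capitals, and have nearly the same sequence (RefSeq, GRCm38.p6; chr19:22750610-22750631 and chr7:64205831-64205852, plus strand).
miR-204: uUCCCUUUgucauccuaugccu
miR-211: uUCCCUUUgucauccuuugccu

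Both fell in the log2 ratio, by less than the cluster. MiR-204 was at 0.13, -0.35 and -0.25 on the EAU arrays, against 0.67, 0.56 and 0.50 on the naive arrays, a difference of -0.73 (SE 0.13; adjusted p = 0.0291, limma). That call was lost on leaving out any 1 array other than EAU replicate 1 (adjusted p between 0.0533 and 0.104), and with median centring (0.374), no normalization (0.528) and the median of spots (0.0637). MiR-211 was at -0.01, -0.13 and -0.10 on the EAU arrays, against 0.41, 0.47 and 0.37 on the naive arrays, a difference of -0.50 (SE 0.04; adjusted p = 0.00702), and lost its call with median centring (0.129) and with no normalization (0.223). In the sample channel they fell by 1.18 and 0.71 on the log2 scale (adjusted p = 0.0205 for both). There miR-204 lost its call on leaving out EAU replicate 2 or any naive array, and miR-211 on leaving out EAU replicate 2 or naive replicate 1 or 3 (adjusted p between 0.06 and 0.0764), and both with no normalization (0.889). Scaled to the spike-in controls, miR-204 was at -0.26 (adjusted p = 0.38) and miR-211 turned to 0.13 (adjusted p = 0.605). Their differences from the cluster were not tested.

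The 5 other probes with the pattern most like the cluster were found by the root-mean-square difference between profiles of 6 log2 ratios, each centred on its naive mean, among 283 candidates. The mean profile of the cluster was -0.63, -1.83 and -0.85 on EAU replicates 1 to 3, where the value of replicate 1 is the mean of miR-96 and miR-182 alone. The most similar were miR-30b (root-mean-square difference 0.278), miR-30a (0.337), miR-197 (0.357), miR-204 (0.380) and miR-181a (0.436). The median over all candidates was 0.852. MiR-30b was at -0.52, -1.34 and -0.76 on EAU replicates 1 to 3, with the lowest value on EAU replicate 2 as in the cluster, and miR-197 was at -1.36, -1.62 and -1.15. The 6 arrays are shared by all these probes, so the likeness is a description.

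Marker miRNAs of other cells were counted beside the cluster. Over all tested probes, 4.2% were called higher in the log2 ratio and 4.87% in the sample channel, beside the shares called lower given above. Of 7 leukocyte miRNAs, 1 rose in the log2 ratio and 6 did not pass, with a median difference of 0.09, against -0.01 over all tested probes. Their summed raw Hy3 signal was 790 to 1625 on EAU arrays and 537 to 676 on naive arrays. No background was subtracted from this sum or from those below, so probes near the blanks add background to them. Of the 7, 4 were above the blanks on all EAU arrays, 2 on all naive arrays and 1 on none. Of these 7, 2 rose in the sample channel. Of 12 neuronal miRNAs, which marked the tissue as neural, 4 fell in the log2 ratio and 8 did not pass, with a median of -0.08. Their differences in the log2 ratio ran from -0.69 to 0.02. In the sample channel 3 of them fell and 9 did not pass, with differences from -2.07 to 0.17. The lowest of these lay below that of each member of the cluster. Their summed signal was 6773 to 18639 on EAU arrays and 44928 to 50947 on naive arrays, with 5 above the blanks on all EAU arrays, 8 on all naive arrays and 3 on none. Both pigment epithelium miRNAs fell, as given above, with a summed signal of 287 to 1271 on EAU arrays and 1300 to 1651 on naive arrays. Of 3 erythroid miRNAs 1 fell in the log2 ratio and 2 did not pass, with a median of 0.01, while the 3 differences in the sample channel were positive, between 0.04 and 0.26, and did not pass. They had a summed signal of 215 to 443 on EAU arrays and 209 to 269 on naive arrays. Of the 3, 2 were above the blanks on all EAU arrays, 0 on all naive arrays and 1 on none. The summed signal of the cluster itself was 495 to 1162 on EAU arrays and 2793 to 3134 on naive arrays. The part of the makeup of the cells in the differences of the cluster was not tested.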

How the data were processed

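The deposited scanner files, 1 per array, hold spot intensity with local background and a processed intensity used in alternatives. Per the file headers they come from Agilent Feature Extraction, version 9.1.3.1. The table of a linear ratio per probe was made by the authors in a way not given in the sources used here, and 36 of its 1972 rows, above 32 on all arrays, were left out.

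Mean spot signals were corrected by normexp (offset 50), and loess within arrays gave control spots a weight of 0 (limma 3.58.1, R 4.3.3). Outlier spots were left out and spots of a probe averaged on the log2 scale. EAU was compared with naive by lmFit and eBayes over 595 mouse probes with values on at least 2 arrays a group, two-sided, with Benjamini-Hochberg adjustment and a threshold of 0.05. A probe counted as above the blanks when 50% or more of its spots lay above the blank level. The fit was tested on simulated data. Likeness was scored for probes with a value on every array and above the blanks in Hy3 on at least 3 of them. Named are the 3 members, the other arms, miR-204 and miR-211, and the 5 most similar probes. The members and lists were chosen with earlier results of these data known. The number of arrays limits the precision.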

Additional observations from a re-analysis of the deposited data

How the results depend on the processing

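The differences of the 3 members were negative in every setting tried, in the log2 ratio and in the sample channel. The count of calls moved more. In the log2 ratio it was 77 as reported, 2 with median centring in place of loess, 25 with no normalization, 33 with loess on spots above the blanks, 26 with offset 0, 47 with the median of spots and 8 to 79 without 1 array. In the sample channel it was 63 as reported, 32 with the processed signal minus its 75th percentile, 0 with no normalization (32 at an unadjusted p under 0.05, limma), 346 and 327 scaled to the spike-in controls with offset 50 and 0, and 7 to 61 without 1 array. Of the 346 and 327, 342 and 325 were called higher.

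The log2 ratio of miR-183 did not pass with median centring (-1.62), offset 0 (-1.58), the median of spots (-1.31) or the outlier spots kept unless above the blanks in 1 channel only (-1.23), and lay between -1.83 and -0.93 without 1 array. MiR-96 passed with no normalization (-1.22), no background correction (-1.11), only probes above the blanks (-0.91, adjusted p = 0.0347), processed signals (-1.40) and the deposited table (-1.40), and lay between -1.07 and -0.66 without 1 array. MiR-182 passed with processed signals (-1.85) and the deposited table (-1.75), and lay between -1.58 and -0.79 without 1 array. In the sample channel none of the 3 passed with no normalization (-1.96, -1.62 and -1.92). Scaled to the spike-in controls, miR-96 did not pass at -0.73 or, with offset 0, at -0.75, nor miR-182 with offset 0 at -0.93. MiR-211 turned there to 0.13 and 0.058, and miR-183* passed at 1.35 and 1.69. Without 1 array the sample channel gave -1.93 to -1.84 for miR-183, -1.55 to -1.21 for miR-96 and -2.08 to -1.51 for miR-182. The pairs gave -0.41 to -0.22, -0.53 to -0.13 and -0.42 to 0.016. MiR-182 minus miR-183 turned to 0.16 with outlier spots kept. The causes were not tested.

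Replicate numbers were not taken as pairing, since the labels do not say that they pair naive with EAU samples. In deviations from the group means, same-numbered arrays correlated at 0.19, -0.15 and 0.29. Differently numbered arrays correlated at -0.44 to 0.30, so these values do not settle whether the numbers pair. With the replicate number as a block, calls numbered 2 in the log2 ratio and 14 in the sample channel. MiR-183 was at -1.43 in the log2 ratio (adjusted p = 0.154), and miR-96 at -1.42 and miR-182 at -1.80 in the sample channel, without passing. MiR-204 and miR-211 did not pass in the log2 ratio (adjusted p = 0.0776 and 0.0743), nor miR-204 in the sample channel (0.0585).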
